A study of Mus musculus with 72 samples.

Results

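The genes described here are the mouse cytochrome P450 genes of families 1 to 4, that is, genes whose symbol is Cyp followed by a family digit from 1 to 4 and a subfamily letter, such as Cyp2e1. Their symbols were read through RefSeq from the accession the mRNA array gives for each probe, and a probe was kept when the scanner software marked it as well above background on at least 1 of the 36 mRNA arrays. The array held 102 probes for 83 such genes, and 93 probes for 78 genes were kept. By the same limit, 20981 genes named through RefSeq were kept in all. Of the 93 probes, 88 were for protein-coding genes and 5 for pseudogenes, and 13 genes had more than 1 probe. RNA was taken from liver and lung of female C57BL/6 J mice aged 6 to 8 weeks, 48 h after a whole-body exposure to X-rays at 1.05 Gy per min. The exposed groups received 1, 2, 4, 8 or 12 Gy, the controls were sham-exposed (0 Gy), and no genetic change or second agent was named for any group. Each dose had 3 arrays per tissue, each from a separate mouse. The same sample numbers were used in both tissues and serve here as mouse numbers. The labels do not say whether liver and lung of the same number came from the same animal.

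P450 enzymes are heme proteins of the endoplasmic reticulum that oxidise their substrates with electrons passed on by P450 oxidoreductase (Por). Families 1 to 3 are best known for clearing pollutants, drugs and steroids, and family 4 for hydroxylating fatty acids and leukotrienes at the end of the chain. Hepatocytes hold the richest supply, with Cyp2e1 and Cyp1a2 around the central vein, whereas club cells of the airway hold Cyp2f2 and Cyp4b1. Transcription is switched by ligand-activated factors, among them the aryl hydrocarbon receptor (Ahr) for family 1, CAR (Nr1i3) and PXR (Nr1i2) for subfamilies 2B, 2C and 3A, and PPAR alpha (Ppara) for subfamily 4A.

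Promoter sequences are shown for 6 genes on which the results below turn or against which they are read. RefSeq windows of build GRCm38.p6, from 250 bases before to 50 bases after the transcription start, were matched for 59 of the 78 genes, in 65 windows. Cyp3a25 and Cyp3a57 rose together in liver, and Cyp3a11 is the 3A gene next to which they are set. Their windows lie at chr5:146009568-146009867 on the minus strand (Cyp3a25), chr5:145345019-145345318 on the plus strand (Cyp3a57) and chr5:145879805-145880104 on the minus strand (Cyp3a11), and are written 5′ to 3′ along the gene. Capitals mark AGGTCA, the half-site that nuclear receptors read, on either strand (TGACCT is its reverse complement), and TATAAA, the letters of a TATA box.
Cyp3a25: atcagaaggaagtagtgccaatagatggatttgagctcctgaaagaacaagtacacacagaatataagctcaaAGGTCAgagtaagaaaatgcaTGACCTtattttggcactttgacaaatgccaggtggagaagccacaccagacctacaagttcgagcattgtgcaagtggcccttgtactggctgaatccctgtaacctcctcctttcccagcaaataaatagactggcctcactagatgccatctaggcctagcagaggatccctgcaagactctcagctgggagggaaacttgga
Cyp3a57: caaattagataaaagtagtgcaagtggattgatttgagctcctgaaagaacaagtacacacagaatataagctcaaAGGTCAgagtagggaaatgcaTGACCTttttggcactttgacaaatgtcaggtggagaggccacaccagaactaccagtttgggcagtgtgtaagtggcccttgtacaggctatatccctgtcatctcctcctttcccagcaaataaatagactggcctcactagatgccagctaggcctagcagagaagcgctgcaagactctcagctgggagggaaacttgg
Cyp3a11: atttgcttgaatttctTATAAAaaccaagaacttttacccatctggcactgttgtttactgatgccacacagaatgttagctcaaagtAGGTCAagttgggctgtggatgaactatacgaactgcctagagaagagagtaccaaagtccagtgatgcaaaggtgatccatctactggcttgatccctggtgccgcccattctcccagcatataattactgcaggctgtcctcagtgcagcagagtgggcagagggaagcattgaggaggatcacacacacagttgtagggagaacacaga
The Cyp3a25 and Cyp3a57 windows were identical at 270 of 303 aligned positions (89.1%), with a longest shared run of 57 bases. Cyp3a11 was identical to Cyp3a25 at 54.7% and to Cyp3a57 at 57.0% of aligned positions, and its longest run shared with either was 10 bases. Counted from the start, with negative positions before it, AGGTCA began at −177 and its reverse complement at −156 in Cyp3a25. In Cyp3a57 the same pair began at −174 and −153, and in Cyp3a11 a single AGGTCA began at −162. The TATAAA marked in Cyp3a11 began at −234, far from the start.

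The other windows belong to Cyp2j9, which rose in liver, and to Cyp1a1 and Cyp2e1, which moved with dose in lung. They lie at chr4:96591436-96591735 on the minus strand (Cyp2j9), chr9:57697363-57697662 on the plus strand (Cyp1a1) and chr7:140763569-140763868 on the plus strand (Cyp2e1). Here capitals mark TATAAA and GCGTG, the core of the dioxin response element that the aryl hydrocarbon receptor reads.
Cyp2j9: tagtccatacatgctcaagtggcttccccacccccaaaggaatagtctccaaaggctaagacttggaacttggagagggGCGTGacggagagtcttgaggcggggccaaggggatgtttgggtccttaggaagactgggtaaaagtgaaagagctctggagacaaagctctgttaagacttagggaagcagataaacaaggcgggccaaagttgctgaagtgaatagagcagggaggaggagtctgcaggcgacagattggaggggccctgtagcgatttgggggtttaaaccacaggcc
Cyp1a1: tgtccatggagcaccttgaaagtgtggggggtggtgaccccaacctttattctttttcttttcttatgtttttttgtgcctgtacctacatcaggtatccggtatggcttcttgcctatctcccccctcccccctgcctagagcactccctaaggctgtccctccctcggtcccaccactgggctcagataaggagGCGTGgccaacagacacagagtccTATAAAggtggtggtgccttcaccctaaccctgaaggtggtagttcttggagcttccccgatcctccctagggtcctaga
Cyp2e1: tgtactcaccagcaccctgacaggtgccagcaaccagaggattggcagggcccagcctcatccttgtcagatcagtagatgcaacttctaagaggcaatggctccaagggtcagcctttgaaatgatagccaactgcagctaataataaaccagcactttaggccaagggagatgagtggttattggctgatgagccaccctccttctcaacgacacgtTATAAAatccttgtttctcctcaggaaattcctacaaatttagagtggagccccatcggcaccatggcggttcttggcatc
GCGTG began at −171 in Cyp2j9 and at −54 in Cyp1a1, and TATAAA at −30 in Cyp1a1 and −31 in Cyp2e1. Over both strands, AGGTCA stood in 19 of the 65 P450 windows (29.2%) and in 16.3% of 32851 RefSeq windows of this length, GCGTG in 14 (21.5%) against 32.4%, and TATAAA in 27 (41.5%) against 13.6%. None of the 3 motifs is contained in another, and a match says only that these letters are in the window.

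All levels below are log2 of background-corrected, quantile-normalised spot intensity, so that 1 unit is a 2-fold difference, and a level is compared only with the same probe. A gene was called changed at an absolute log2 difference above 1 with an adjusted p under 0.05 (limma, Benjamini-Hochberg over all probes tested), and "rose" and "fell" are used of such genes only. Dose trends are the fitted slope multiplied by 12 Gy. The scanner marked 46.1 to 54.0% of spots as well above background on liver arrays and 59.2 to 64.0% on lung arrays, except for the 4 lung arrays of 1 slide (mouse 25 at 8 Gy and all 3 mice at 12 Gy), with 54.1 to 54.8%. That slide was scanned on a later day than the other slides. A second lung array stood apart: that of mouse 24 at 4 Gy had a summed intensity of 15 hepatocyte marker genes of 136900, against 29650 to 63240 on the other 17 lung arrays and 3311000 to 3524000 on the liver arrays. The lung array of mouse 16 at 12 Gy had 1578 spots flagged as outliers, 4 of them for P450 probes, against 110 to 600 on the other lung arrays. In liver, summed intensity of 8 club cell markers was 3568 and 2349 in mice 1 and 11 at 0 Gy and 7844 in mouse 16 at 12 Gy, against 752 to 1326 elsewhere and at least 943300 in lung. Results that rest on these arrays are given with and without them.

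Of the 93 probes, 32 were well above background on all 36 arrays, 71 on all 18 liver arrays and 38 on all 18 lung arrays, while 6 were so on no liver array and 12 on no lung array. Just inside the limit were 4 probes well above background on 1 array, for Cyp4x1 in lung, Cyp2w1 in liver and both dimmer probes of Cyp2j13 in liver, with mean log2 levels over all arrays of 4.28, 4.62, 4.27 and 4.18. Just outside it were 9 probes marked on no array, with mean levels of 3.74 to 4.30, which were the probes of Cyp4a30b, Cyp4f40, Cyp4f37, Cyp2b23 and Cyp4x1os and further probes of Cyp4x1, Cyp2w1, Cyp2j13 and Cyp2b19.

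Before any exposure the P450 genes divided liver from lung. Between the 0 Gy groups, 75 of 93 probes (80.6%, 64 genes) were called different, against 35.5% of 47376 probes tested, with both tissues normalised together. Lung was lower for 66 probes, against 17.3% of all probes, and higher for 9, against 18.3%. The median lung minus liver difference was −5.22 for the P450 probes and −0.05 for all probes. In bulk tissue, fewer cells of a type and less RNA per cell cannot be told apart.

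Among the genes higher in lung, Cyp2s1, an epithelial P450 that oxidises retinoids, stood at 13.64, 13.52 and 12.94 in lung and 7.57, 7.77 and 7.46 in liver, a 54.5-fold difference (log2 5.77, limma adjusted p = 5.5e-18). Cyp4b1, which activates furans and aromatic amines, stood at 14.48, 14.29 and 13.27 in lung and 10.10, 10.54 and 10.68 in liver, an 11.9-fold difference (adjusted p = 5.6e-13). Cyp1b1, which oxidises oestrogens and polycyclic hydrocarbons outside the liver, stood at 8.84, 8.61 and 9.33 in lung and 6.64, 6.49 and 5.81 in liver, a 6.11-fold difference. In each of these 3 genes every lung value lay above every liver value. Cyp4f18, a leukotriene B4 hydroxylase of myeloid cells, was 6.44-fold and 6.92-fold higher in lung by its 2 probes. Cyp1a1, which activates polycyclic hydrocarbons, was at least 5.35-fold higher in lung, since it was not well above background on any 0 Gy liver array, and on the same footing Cyp2ab1 was at least 3.08-fold and Cyp4b1-ps2 at least 2.84-fold higher. Cyp2f2, which oxidises naphthalene in club cells, stood at 18.33, 17.95 and 18.004 in lung and 17.32, 17.22 and 17.26 in liver, which passed the adjusted p (3.6e-07) but at 1.78-fold not the fold limit.

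The probes higher in liver included all 11 of subfamily 2D, all 8 of 3A and 17 of 19 of 2C. Cyp2c29, a drug and arachidonic acid oxidase, was 3368-fold higher in liver (log2 lung minus liver −11.72), and Cyp2c67 differed by −11.75, each with 2 of 3 lungs well above background. Cyp3a11, the main mouse counterpart of human CYP3A4, stood at 15.62, 17.02 and 16.93 in liver and 4.84, 4.75 and 5.65 in lung, a 2791-fold difference, with 1 of the 3 lung values well above background. Cyp1a2, which demethylates caffeine, stood at 15.33, 15.05 and 14.99 in liver and was not well above background in any 0 Gy lung, so that liver was at least 1481-fold higher. The bounds were at least 1993-fold for Cyp3a59, 1671-fold for Cyp2j5 (an arachidonic acid epoxygenase), 683-fold for Cyp2d9 (a male-predominant steroid hydroxylase), 613-fold for Cyp4a10, 310-fold for Cyp3a44, 66.1-fold for Cyp2c55 and 13.8-fold for Cyp4a14. Cyp2e1, which oxidises ethanol, was measured in both tissues, and was 39.6-fold higher in liver by its brighter probe and 146-fold by the other. The 2 probes of Cyp2b10 differed, the dimmer being higher in lung by 2.11 and the brighter by 0.35 (adjusted p = 0.021), under the fold limit. Near-identical relatives within 2C, 2D, 3A and 4A can bind each other's probes, so that the share of each gene in these values is uncertain.

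**Figure D1:**
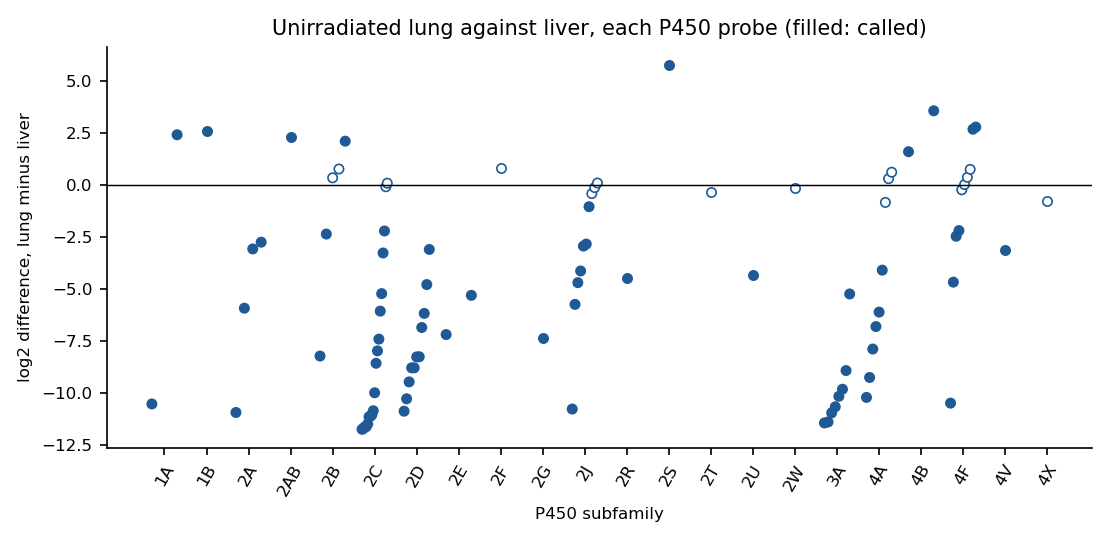
Lung minus liver difference at 0 Gy in log2 units (vertical axis) for each of the 93 P450 probes, grouped by subfamily (horizontal axis), with 3 mice per tissue. Filled points are the 75 probes called different; most lie below 0, with the 2C and 3A probes reaching below −11, and Cyp2s1 lies highest at 5.77.

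In liver, 87 probes for 72 of the genes could be tested, and few of them changed with dose. No probe was called at 1 Gy, where 0.0339% of 38362 probes were, and none at 2 Gy, where 0.245% were; at an unadjusted p under 0.05 limma counted 6 and 13 of the 87. At 4 Gy 2 probes were called (0.944% of all probes), at 8 Gy 3 (2.21%) and at 12 Gy 4 (2.06%). For the trend over dose 7 probes of 5 genes were called (8.05%), against 2.03% of all probes, of which 6 rose (0.892% of all) and 1 fell (1.14%). At the adjusted p alone, 13 probes had a positive slope (14.9%, against 4.04% of all probes) and 4 a negative slope (4.60%, against 5.47%). The median trend was 0.11 over the P450 probes and 0.00 over all. Summed B cell markers went from 2867 to 3529 at 0 Gy to 1091 to 1197 at 12 Gy in the same livers (7 of 13 markers called lower over dose), T cell markers from 13370 to 17660 to 11330 to 13040 (5 of 12), macrophage markers from 56210 to 62360 to 40420 to 41590 (0 of 10, and 6 at the adjusted p alone) and endothelial markers from 15850 to 17190 to 13220 to 14330 (1 of 10, and 4 at the adjusted p alone), while 0 of 15 hepatocyte markers were called. The part of these cell types in the P450 values was not tested.

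Cyp2j9, an oxidase of arachidonic and linoleic acid, showed the steadiest change. Its levels were 9.01, 9.25 and 9.32 at 0 Gy, 9.47, 9.46 and 9.72 at 1 Gy and 9.77, 9.83 and 9.91 at 2 Gy. They were 10.25, 10.18 and 10.48 at 4 Gy, 10.03, 10.90 and 10.29 at 8 Gy and 10.64, 10.10 and 10.43 at 12 Gy. All 9 livers at 4 Gy and above lay higher than all 9 at lower doses. Cyp2j9 rose by 1.11 (SE 0.19, adjusted p = 0.0074, limma) at 4 Gy, 1.21 at 8 Gy and 1.20 at 12 Gy, that is 2.16-fold, 2.32-fold and 2.29-fold, with a trend of 1.1 (adjusted p = 0.0031). The 8 Gy call was lost without mouse 15 and the trend call without mouse 1. With both tissues fitted together the 4 Gy difference (0.99) and the trend (0.98) missed the fold limit. None of the other 2J genes was called in liver, with trends from −0.34 to 0.27, Cyp2j5 at −0.10 among them.

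Cyp2u1, which hydroxylates long-chain fatty acids, moved the other way. Levels were 9.43, 9.01 and 8.73 at 0 Gy, 8.32, 8.97 and 8.83 at 1 Gy and 8.35, 8.67 and 8.40 at 2 Gy. They were 7.70, 8.06 and 8.03 at 4 Gy, 7.81, 7.91 and 8.59 at 8 Gy and 7.69, 7.87 and 7.83 at 12 Gy. The livers at 4 and 12 Gy lay below all livers at 0 to 2 Gy, whereas mouse 25 at 8 Gy lay among the latter. Cyp2u1 fell by 1.12 on the log2 scale (SE 0.23, adjusted p = 0.015, limma) at 4 Gy and by 1.26 at 12 Gy, 2.18-fold and 2.39-fold, and its difference of −0.95 at 8 Gy missed the fold limit. The 8 Gy difference was called with processed signal (−1.07), with the authors' series values (−1.13), and without mouse 21 or 25, while with an offset of 50 the 4 Gy difference (−0.98) and the trend (−0.92) missed the limit. Its trend was −1.07 (adjusted p = 0.0053). The call at 4 Gy was lost without mouse 1, 11 or 4, and that of the trend without mouse 1.

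In subfamily 3A, whose enzymes hydroxylate steroids and many drugs, Cyp3a25 and Cyp3a57 rose at 8 Gy. Cyp3a25 stood at 15.01, 15.43 and 15.42 at 0 Gy, 16.33, 16.47 and 16.31 at 8 Gy and 16.24, 15.73 and 16.23 at 12 Gy. Cyp3a57 stood at 13.50, 13.99 and 14.06 at 0 Gy, 14.85, 14.99 and 14.83 at 8 Gy and 14.78, 14.26 and 14.82 at 12 Gy. At 8 and 12 Gy every liver lay above every 0 Gy liver for both genes, and mouse 16 was the lowest at 12 Gy for both. The differences at 8 Gy were 1.09 (2.12-fold, adjusted p = 0.0065, limma) for Cyp3a25 and 1.04 (2.05-fold, adjusted p = 0.0072) for Cyp3a57. At 12 Gy they were 0.78 and 0.77, under the fold limit, and both 8 Gy calls were lost without mouse 1, that of Cyp3a57 also without mouse 15. Both also missed the fold limit with the scanner's processed signal (0.91 and 0.93) and with the authors' series values (0.85 and 0.87), Cyp3a57 missed it with 75th percentile scaling (0.98), and neither passed the adjusted p with both tissues fitted together (0.55 and 0.22). These are the genes whose promoter windows share 89.1% of positions, and whether each probe reads its own transcript alone is uncertain.

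The other 3A genes were not called in liver. Cyp3a13 came closest, with a trend of 0.79 (adjusted p = 0.00054, limma) and 0.91 at 12 Gy. Cyp3a11 varied more between mice than between doses, at 15.36, 16.98 and 16.86 at 0 Gy and 17.12, 15.97 and 17.12 at 12 Gy, with a trend of 0.38 (adjusted p = 0.60). Trends were 0.23 for Cyp3a16 and −0.04 for Cyp3a41a, both of them genes of female and fetal liver. Cyp3a44, another female-predominant gene, differed by −1.64 at 8 Gy (adjusted p = 0.095), with 1 value at 1 Gy left out as a spot the scanner flagged.

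Subfamily 4A, the fatty acid hydroxylases induced through PPAR alpha, held 5 of the 6 probes that rose over the liver trend, 3 of them for Cyp4a10. Cyp4a14 stood at 7.03, 7.26 and 8.05 at 0 Gy and 9.61, 8.80 and 10.50 at 12 Gy, without overlap. It stood at 8.31, 8.58 and 9.59 at 4 Gy and 9.04, 9.37 and 8.14 at 8 Gy, all above the 0 Gy livers. It rose by 2.19 at 12 Gy (SE 0.46, 4.57-fold, adjusted p = 0.0099, limma) and by 1.91 over the trend (3.76-fold, adjusted p = 0.0026). The brightest probe of Cyp4a10 stood at 13.25, 13.06 and 14.17 at 0 Gy and 14.91, 13.99 and 15.53 at 12 Gy. It rose by 1.32 at 12 Gy (2.49-fold, adjusted p = 0.048), and the 3 Cyp4a10 probes rose by 1.12 to 1.19 over the trend, although the lowest liver at 12 Gy lay below the highest at 0 Gy. For Cyp4a31 the dimmer probe rose by 1.41 over the trend (adjusted p = 0.013) and the brighter gave 0.88 (adjusted p = 0.018), under the fold limit. For all 6 of these probes mouse 21 was the highest at 0 Gy, mouse 24 the highest at 4 Gy, and at 12 Gy mouse 26 was the highest and mouse 16 the lowest. Without mouse 26 the trend calls of Cyp4a10 and Cyp4a31 and the 12 Gy calls of Cyp4a10 and Cyp4a14 were lost. The 12 Gy call of Cyp4a10 was the least steady, lost on leaving out any of 13 of the 18 livers.

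Cyp4a12a and Cyp4a12b, male-predominant makers of 20-HETE, had negative trends of −1.21 (adjusted p = 0.20) and −1.24 (adjusted p = 0.22) and were not called. Cyp4a12b stood at 9.13, 6.62 and 6.77 at 0 Gy and 5.40, 7.22 and 6.14 at 12 Gy, so that the 0 Gy mean rested on mouse 1. The probes of Cyp4a12a and Cyp4a12b are for near-identical transcripts.

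**Figure D2:**
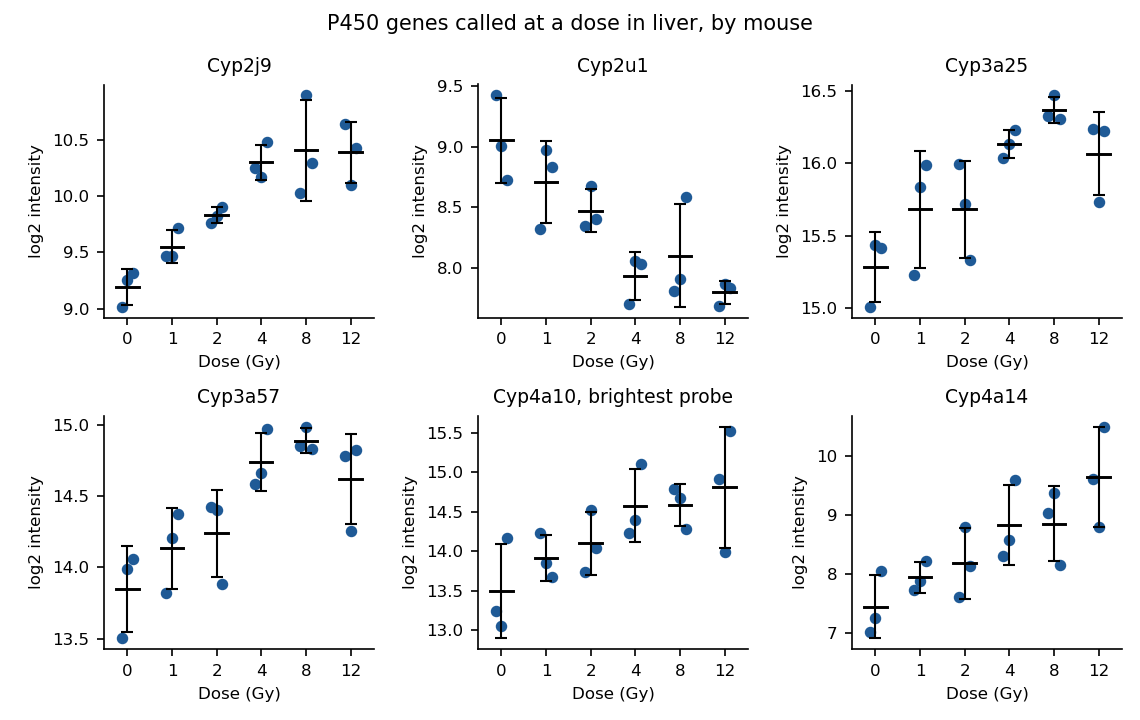
Liver log2 level (vertical axes) against dose in Gy, drawn as evenly spaced categories, for Cyp2j9, Cyp2u1, Cyp3a25, Cyp3a57, the brightest probe of Cyp4a10 and Cyp4a14. Points are single mice and bars the mean ± SD of 3 mice; Cyp2j9 climbs to 4 Gy and then levels off, Cyp2u1 declines, and Cyp4a14 spreads from 8.80 to 10.50 at 12 Gy.

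The P450 genes best known from hepatocytes of the central vein, Cyp2e1 and Cyp1a2, were not called. For Cyp2e1 the brighter probe read 18.25, 18.21 and 18.19 at 0 Gy and 18.30, 18.26 and 18.22 at 12 Gy, a trend of 0.04 (adjusted p = 0.79, limma). This probe sits near the top of the intensity range, and the dimmer probe gave 0.29 (adjusted p = 0.64). Cyp1a2 stood at 15.08, 14.84 and 14.79 at 0 Gy and 14.21, 14.58 and 13.21 at 8 Gy, a difference of −0.90 that missed the threshold (adjusted p = 0.057) and that was called without mouse 15. Cyp2f2 differed by −0.39 at 12 Gy (17.40, 17.25 and 17.31 against 16.76, 16.98 and 17.02, adjusted p = 0.048), without overlap but under the fold limit. Trends were −0.02 for Cyp1b1 (5.79, 5.67 and 5.17 at 0 Gy and 5.25, 5.91 and 5.65 at 12 Gy) and −0.35 for Cyp4b1 (9.39, 9.89 and 10.04 against 9.63, 9.09 and 9.32). Cyp1a1 was well above background on 3 liver arrays and ranged from 3.90 to 5.49.

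Subfamilies 2A to 2D, which hold the coumarin hydroxylase Cyp2a5 and the CAR target Cyp2b10, gave no call at the main settings. In 2A, trends of 0.41 for Cyp2a5 and 0.39 for Cyp2a22 passed the adjusted p (0.046 and 0.045, limma), and Cyp2a4 gave 0.14. In 2B, Cyp2b13 differed by 0.98 at 4 Gy (adjusted p = 0.033) and 0.84 at 12 Gy, Cyp2b9 by 0.67 and 0.60, and the brighter Cyp2b10 probe by 0.53 at 4 Gy and 0.52 at 8 Gy, while no 2B trend passed. In 2C, 18 probes had a median trend of −0.29, and the negative trends of Cyp2c67 (−0.74, adjusted p = 0.0083) and Cyp2c69 (−0.67, adjusted p = 0.0073) passed the adjusted p, whereas Cyp2c29 gave −0.07, Cyp2c37 0.04 and Cyp2c55 −0.42. In 2D, Cyp2d22 differed by 0.66 at 12 Gy (adjusted p = 0.011) and Cyp2d9 gave a trend of 0.09. At 12 Gy the dimmer Cyp2c50 probe differed by 0.96 and the dimmer Cyp2c23 probe by −0.67, and Cyp2c50 and Cyp2b13 were called there without mouse 21. Cyp2c39 depended on the processing: its 12 Gy difference was 0.84 here, but 1.46 (adjusted p = 0.0050) with the authors' series values and 1.48 (adjusted p = 0.0052) with processed signal, and both settings also called it at 4 Gy and over the trend. It was called at 4 and 12 Gy with 75th percentile scaling and with both tissues fitted together as well. The pseudogene Cyp4f41-ps, well above background on 2 liver arrays, had a trend of −0.94 (adjusted p = 0.0020), which was called with processed signal (−1.27), the authors' series values (−1.29) and both tissues fitted together (−1.30). Trends were −0.19 for Cyp2s1, −0.37 for Cyp4f14 and 0.02 for Cyp4v3, and Cyp4f18, by its dimmer probe, differed by −0.93 at 8 Gy (adjusted p = 0.017). That Cyp4f18 probe was well above background on 2 livers at 0 Gy and on none at 8 Gy. Its 8 Gy difference was called with both tissues fitted together (−1.35).

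The liver arrays lay on 3 slides that differed in dose, and with slide as a fixed term none of these calls was kept. At 12 Gy Cyp2j9 was then 1.34 (adjusted p = 0.16, limma), Cyp2u1 −1.26 (adjusted p = 0.30), Cyp4a14 2.24 (adjusted p = 0.38) and Cyp4a10 1.5 (adjusted p = 0.48), all in the direction given above. With slide as a random term, the 12 Gy calls of Cyp2j9 (adjusted p = 0.0039), Cyp2u1 (0.0079) and Cyp4a14 (0.020) and the 8 Gy calls of Cyp3a25 (0.013) and Cyp3a57 (0.014) were kept, as were the trend calls of Cyp2j9, Cyp4a14 and Cyp4a31. The 12 Gy call of Cyp4a10 (0.080) and the trend calls of Cyp2u1 (−0.99, under the fold limit) and of all 3 Cyp4a10 probes were lost.

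In lung, 81 probes for 72 genes could be tested, and at most 3 of them were called at any dose. At 1 Gy 0 probes were called (0.0227% of 43979 probes tested) and at 2 Gy 0 (0.443%), with 3 and 6 of the 81 at an unadjusted p under 0.05 (limma). At 4 Gy 1 was called (1.46% of all), at 8 Gy 1 (2.52%) and at 12 Gy 3 (7.32%). Over the trend 4 of 81 probes were called (4.94%), against 7.05% of all probes, of which 2 fell (4.35% of all) and 2 rose (2.7%). At the adjusted p alone 5 had a negative slope (6.17%, against 11% of all) and 10 a positive slope (12.3%, against 19.6%). Whether these shares differ from those of all probes was not tested.

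The liver-type P450 genes were near background in lung, and the array of mouse 24 at 4 Gy stood out for them. It was the highest of the 18 lungs for 29 of the 43 probes that were well above background on 1 to 17 lung arrays. Over the 43 probes as a set, its excess over the median of the other 17 arrays had a median of 2.40 log2 units. A probe could be among the 43 through this array alone, and without it 79 of the 81 probes could be tested. It was also the highest for 10 of the 38 probes well above background on all lung arrays, with a median excess of 0.32 over all 38. For these 38 probes the array of mouse 16 at 12 Gy was the highest more often, for 12. On the array of mouse 24, Cyp3a41a exceeded the median of the other 17 arrays by 7.16. Cyp3a11 stood at 5.09, 4.98 and 6.06 at 0 Gy, 4.51, 4.98 and 10.69 at 4 Gy and 6.16, 6.79 and 4.34 at 12 Gy. The array of mouse 24 also held the highest sum of hepatocyte markers, 3.59-fold the median of the others (38160). With mouse 24 the median P450 difference at 4 Gy was 0.44, and without it −0.07, against 0.04 and 0.03 over all probes. Leaving it out raised the number called at 12 Gy from 3 to 6 (Cyp2e1, Cyp3a57 and Cyp4a31 were added) and over the trend from 4 to 6 (Cyp3a57 and Cyp4a31 were added). With all lungs, 7.32% of all probes were called at 12 Gy and 7.05% over the trend, and the shares without mouse 24 are not given here. Cyp3a57 was well above background on no lung at 0 Gy and on 2 lungs at 12 Gy. Hepatocyte marker sums at 12 Gy were 52380, 63240 and 29650 in mice 6, 16 and 26. The median trend of the 15 hepatocyte markers in lung was 1.31, with 1 of them called (Tat, tyrosine aminotransferase, 2.62), and the part of hepatocyte RNA in these values was not tested.

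**Figure D3:**
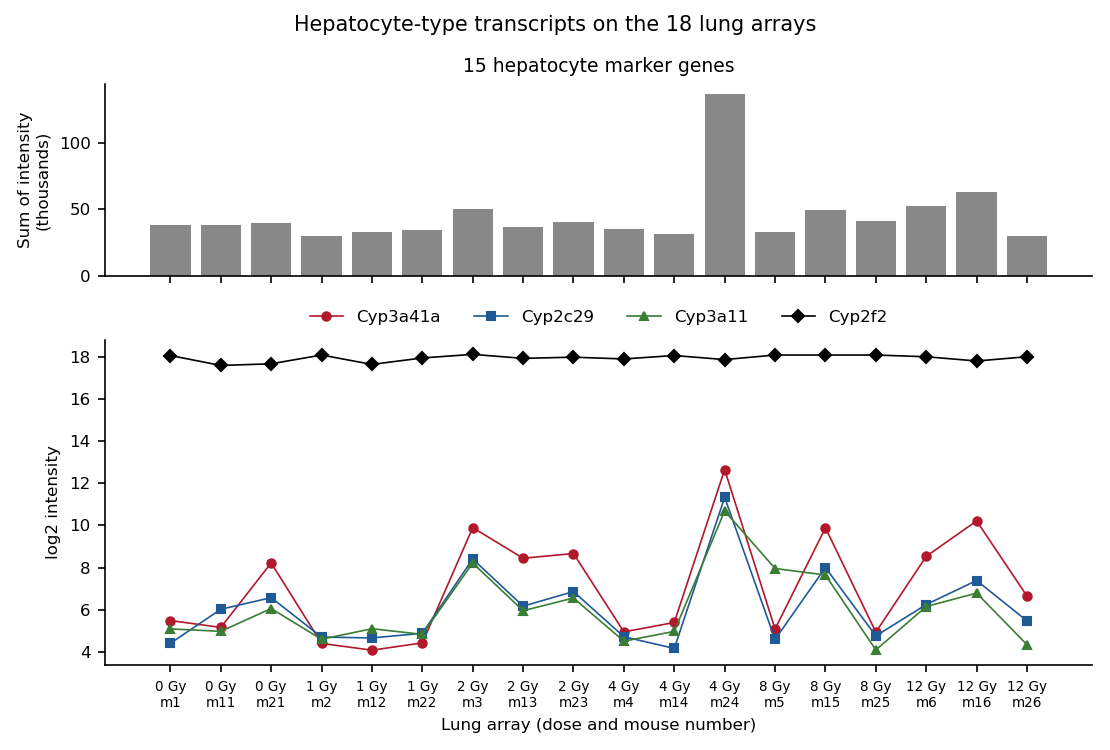
Upper panel, bars starting at 0: summed intensity of 15 hepatocyte markers (axis in kilounits of intensity) for each of the 18 lung arrays. Lower panel: log2 levels of Cyp3a41a, Cyp2c29, Cyp3a11 and Cyp2f2 on the same arrays; mouse 24 at 4 Gy has the tallest bar (136900) and high Cyp3a11 (10.69), while Cyp2f2 stays between 17.59 and 18.12.

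The clearest change in lung was in Cyp4f18, which fell from 4 Gy on. By its dimmer probe it stood at 9.26, 9.61 and 9.42 at 0 Gy, 8.90, 8.73 and 8.98 at 1 Gy and 8.39, 8.96 and 8.74 at 2 Gy. Levels were 8.26, 8.21 and 8.20 at 4 Gy, 7.93, 7.65 and 8.39 at 8 Gy and 8.21, 8.41 and 8.41 at 12 Gy. Every exposed lung lay below every unexposed one. The falls were 1.21 on the log2 scale at 4 Gy (adjusted p = 0.0018, limma), 1.44 at 8 Gy (adjusted p = 0.0002) and 1.08 at 12 Gy (adjusted p = 0.0013), and the trend of −0.98 missed the fold limit. That trend was called with processed signal (−1.11), 75th percentile scaling (−1.04) and the authors' series values (−1.16). It was also called with outlier spots kept (−1.05), with slide as a random term (−1.01) and without the slide scanned later (−2.35). The 12 Gy call was lost without mouse 11 and with an offset of 50 (−0.98), and the calls at 4 and 12 Gy were lost with both probes averaged (−0.82 and −0.85). The brighter probe went the same way with smaller differences, −0.43, −0.74 and −0.62. In these lungs summed B cell markers went from 17190 to 40040 at 0 Gy to 3483 to 4541 at 12 Gy (12 of 14 called lower over dose) and T cell markers from 11390 to 50750 to 3081 to 4514 (11 of 13). Neutrophil markers went from 36470 to 52690 to 52190 to 65450, with 3 of 12 called lower over dose and 0 higher although their sum was not lower. Macrophage markers went from 26680 to 34370 to 26170 to 49720, with 0 of 10 called lower and 1 higher. Of all probes, 4.35% fell over the lung trend and 2.7% rose. The part of these cells in the Cyp4f18 values was not tested.

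Cyp2d22, of the subfamily that oxidises many basic drugs, and Cyp4a12b rose at 12 Gy. Cyp2d22 stood at 8.10, 7.77 and 7.83 at 0 Gy and 8.86, 9.12 and 8.91 at 12 Gy, without overlap, a rise of 1.06 (adjusted p = 0.0013, limma) with a trend of 1.03 (adjusted p = 0.00022). At 4 and 8 Gy its differences were 0.79 and 0.96. Cyp4a12b stood at 9.83, 9.71 and 9.03 at 0 Gy and 10.37, 11.15 and 10.20 at 12 Gy, also without overlap, a rise of 1.05 (adjusted p = 0.017). Both 12 Gy calls were lost without mouse 16, the highest at 12 Gy for each, that of Cyp2d22 also without mouse 11 and that of Cyp4a12b also without mouse 21. The array of mouse 16 is the lung array with the most flagged spots, and with these spots kept Cyp2d22 was 0.97 and Cyp4a12b 0.94, both under the fold limit. Cyp2d22 also missed it with processed signal (0.83), the authors' series values (0.77), 75th percentile scaling (0.97) and an offset of 50 (0.92), and so did its trend, whereas Cyp4a12b passed it under these 4 but not the adjusted p with both tissues fitted together (0.22). Cyp2e1 rose over the trend by 1.59 (3.01-fold, adjusted p = 0.0041) by its brighter probe, which read 12.66, 12.42 and 13.63 at 0 Gy, 14.13, 12.50 and 14.60 at 4 Gy and 14.07, 14.19 and 14.29 at 12 Gy. The dimmer Cyp2e1 probe gave −0.55 (adjusted p = 0.53), so that the 2 probes disagreed, and their average gave 0.52 (adjusted p = 0.44). By the brighter probe all 3 lungs at 12 Gy lay above all 3 at 0 Gy.

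Cyp1a1 and Cyp2a22 fell over the trend, and neither fall was kept without the slide scanned later. That slide held all 3 lungs at 12 Gy, so that slide and dose cannot be told apart for these falls. Cyp1a1 stood at 7.68, 7.96 and 6.92 at 0 Gy and 4.76, 5.79 and 5.68 at 12 Gy, while the 8 Gy lungs were at 6.17, 10.45 and 5.75. Its trend was −1.83 (SE 0.67, adjusted p = 0.046, limma). At 12 Gy it was not well above background in any lung, at least 3.86-fold lower than at 0 Gy, with a difference of −2.11 that missed the threshold (adjusted p = 0.082). That difference was called with the authors' series values (−3.45, adjusted p = 0.025), with processed signal (−3.38, adjusted p = 0.033) and with both tissues fitted together (−1.87, adjusted p = 0.047). Cyp2a22 stood at 8.66, 9.16 and 7.72 at 0 Gy, 8.99, 9.29 and 6.97 at 8 Gy and 7.06, 7.64 and 7.30 at 12 Gy, with a trend of −1.31 (adjusted p = 0.039). The lowest lungs for both genes were those of that slide, mouse 25 at 8 Gy and the 3 mice at 12 Gy. Without the slide, and so without any lung at 12 Gy, the trends turned to 0.58 for Cyp1a1 and 0.78 for Cyp2a22. The Cyp1a1 call was also lost on leaving out any of 15 single lungs.

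**Figure D4:**
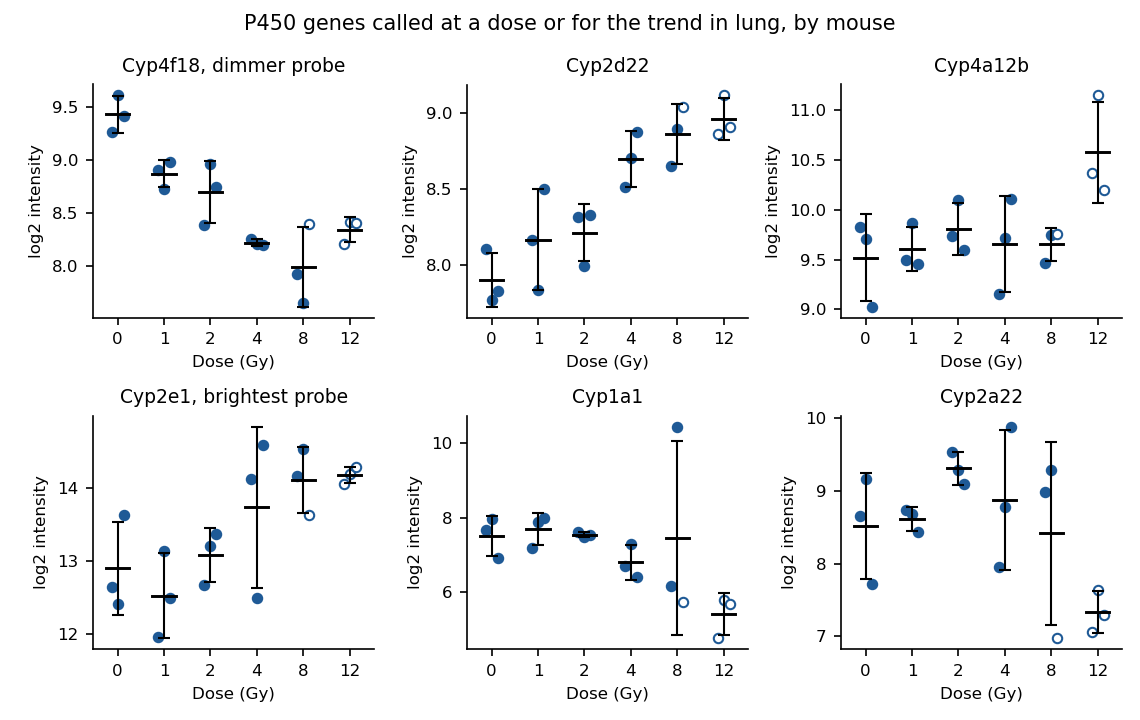
Lung log2 level (vertical axes) against dose in Gy, drawn as evenly spaced categories, for the dimmer Cyp4f18 probe, Cyp2d22, Cyp4a12b, the brighter Cyp2e1 probe, Cyp1a1 and Cyp2a22. Points are single mice, open where the array was on the slide scanned later, and bars are the mean ± SD of 3 mice; Cyp4f18 lies lower at every exposed dose than at 0 Gy, and for Cyp1a1 and Cyp2a22 the open points are the lowest.

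Several further lung genes passed the adjusted p but not the fold limit. Cyp2s1 stood at 13.80, 13.69 and 13.18 at 0 Gy and 14.36, 14.76 and 14.49 at 12 Gy, a difference of 0.98 (adjusted p = 0.0020, limma) without overlap. Cyp1b1 stood at 9.37, 9.15 and 9.85 at 0 Gy and 9.91, 11.15 and 10.24 at 12 Gy, a difference of 0.98 (adjusted p = 0.019), also without overlap. Both lay close to the limit: Cyp2s1 was called at 1.04 to 1.14 with processed signal, 75th percentile scaling, the authors' series values and both tissues fitted together, and Cyp1b1 at 1.002 with 75th percentile scaling and 1.03 in the joint fit. The trend was 0.69 for the brighter Cyp2b10 probe, 0.74 for Cyp2d11, 0.60 for Cyp2a4, 0.50 for Cyp2u1 and −0.68 for Cyp2d13, and Cyp2b9 differed by 0.61 at 8 Gy.

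The P450 genes that mark club cells showed no call over dose at the main settings. For Cyp4b1 the lung slope minus the liver slope was called with processed signal (1.09) and with the authors' series values (1.14). Cyp2f2 stood at 18.06, 17.59 and 17.67 at 0 Gy and 18.004, 17.80 and 18.004 at 12 Gy, a trend of 0.14 (adjusted p = 0.43), among the brightest probes of the array, whose levels quantile normalisation sets to shared values. Cyp4b1 stood at 14.59, 14.40 and 13.47 at 0 Gy and at 14.61 and 15.05 in the 2 lungs measured at 12 Gy, a trend of 0.54 (adjusted p = 0.059), the spot of mouse 16 having been flagged by the scanner and left out. None of 8 club cell markers was called either. Cyp1a2 (5 of 18 lungs well above background) gave a trend of −0.61 (adjusted p = 0.58), and Cyp4a14 was well above background in 1 lung. Trends were −0.26 for Cyp2a5, 0.13 for Cyp2b13, 0.52 for Cyp2c29, 0.42 for Cyp2c37, 0.10 for Cyp2d9, 0.66 for Cyp2j5, −0.57 for Cyp2j9, 0.16 for Cyp3a13, 0.03 for Cyp3a16, 1.90 for Cyp3a41a, 0.52 for the brightest Cyp4a10 probe, 0.46 for Cyp4a12a, 0.61 for Cyp4f14 and 0.01 for Cyp4v3, none with an adjusted p under 0.05. Cyp2c55 and Cyp3a44 were not well above background in any lung.

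With slide as a fixed term no P450 probe was called over the lung trend, and Cyp1a1 stood at 1.16. All lungs at 2 Gy and above lay on other slides than those at 0 Gy, so that slide and dose cannot be told apart there. With slide as a random term the calls of Cyp4f18 at 8 Gy (adjusted p = 0.0037, limma) and 12 Gy (0.013), of Cyp2d22 at 12 Gy (0.032) and of Cyp2e1 over the trend (0.014) were kept, and those of Cyp4f18 at 4 Gy (0.056), Cyp4a12b at 12 Gy (0.16), Cyp1a1 (0.16) and Cyp2a22 (0.081) were lost. Without the later slide, Cyp2d22 (1.37) and Cyp2e1 (2.66) were still called over the trend, again as slopes multiplied by 12 Gy. Cyp4f18 by its dimmer probe (−2.35) and Cyp2b9 (1.01) were called there as well, with no lung at 12 Gy in the fit.

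Whether the dose response itself differed between the tissues was tested as the lung slope minus the liver slope in a joint fit. This difference was called for 10 of 93 probes (10.8%), against 7.24% of all probes. It was positive for Cyp4a12b (2.19), Cyp2e1 by its brighter probe (1.74), Cyp4a12a (1.74), Cyp2u1 (1.39), Cyp4f41-ps (1.29) and Cyp2s1 (1.12). It was negative for Cyp4a14 (−1.93), Cyp2a22 (−1.68), Cyp2j9 (−1.56) and Cyp2ab1 (−1.12). Cyp2u1, which fell in liver, stood in lung at 5.73, 5.90 and 5.96 at 0 Gy and 6.46, 6.28 and 6.17 at 12 Gy, and its difference had the smallest adjusted p of the 10 (0.00023, limma). Cyp2j9, which rose in liver, stood in lung at 9.44, 9.51 and 9.31 at 0 Gy and 9.66, 8.36 and 9.07 at 12 Gy (adjusted p of the difference 0.0010). The values of Cyp4a14, Cyp2ab1 and Cyp4f41-ps lay partly at background, with 1 lung, no liver, and 2 livers and 5 lungs well above it. With slide as a fixed term none of the 10 was called, and with slide as a random term 6 were.

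**Figure D5:**
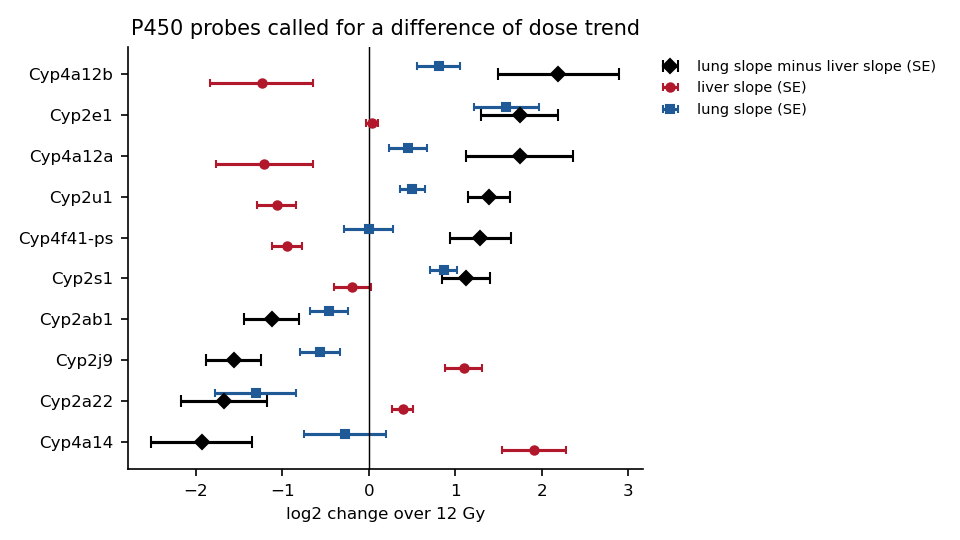
Fitted change over 12 Gy in log2 units (horizontal axis) for the 10 P450 probes whose dose slope differed between tissues: the lung minus liver difference from the joint fit, and the liver and lung slopes from the separate fits. Bars are SE; Cyp2j9, Cyp4a14 and Cyp2u1 are set apart by their liver slopes (1.1, 1.91 and −1.07) and Cyp2s1 by its lung slope (0.87), and Cyp2ab1 has no liver slope because it was not tested there.

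Genes that serve or regulate P450 enzymes were read from lists. Of 7 genes of electron transfer and heme supply, none was called in either tissue, and in liver Por had a trend of 0.98 (adjusted p = 0.00031, limma), just under the fold limit. Of 28 receptors and transcription factors, 3 rose over the liver trend, against 0.892% of all probes. These were Cux2, a female-predominant repressor (1.75), Cebpb (1.07) and Nr1i3, which encodes CAR (1.03). The median was 0.32 over the list against 0.00 over all probes. The receptor genes Ahr (0.74) and Nr1i2 (0.78) did not reach the fold limit. In lung 1 of 26 tested rose over the trend, the bile acid receptor gene Nr1h4 (1.08), against 2.7% of all probes. The list median in lung was 0.38 against 0.08.

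Non-P450 targets of the same receptors moved in part. Of 5 aryl hydrocarbon receptor targets, 0 rose over the liver trend and 1 over the lung trend, against 0.892% and 2.7% of all probes. The 1 was Nqo1, a quinone reductase. In liver Nqo1 rose at 2 Gy (1.08) and at 12 Gy (1.21) but was not called at 4 or 8 Gy. In lung it rose at 8 Gy (1.23) and 12 Gy (1.33). At 12 Gy, 2.06% of all probes were called in liver and 7.32% in lung. Of 10 CAR and PXR targets measured, 1 rose over the liver trend, the epoxide hydrolase gene Ephx1 (1.07), and 3 over the lung trend, the carboxylesterase gene Ces2a (2.36), Ephx1 (1.29) and Papss2 (1.12), against 0.892% and 2.7% of all probes. Of 13 PPAR alpha targets, 2 rose over the liver trend, Angptl4 (1.52), a lipoprotein lipase inhibitor, and Pdk4 (1.30), against 0.892% of all probes, and the list median was 0.56 against 0.00 over all. In lung 4 of 12 rose over the trend, against 2.7% of all probes, among them Angptl4 (2.66), Pdk4 (2.27) and Acot1 (1.52), and Fabp1 fell by 1.15 on the log2 scale.

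Zonal, acute phase and sex-biased liver genes gave the remaining context. None of 8 pericentral genes tested was called in liver, while in lung Glul, glutamine synthetase, rose by 1.20 over the trend. Of 11 periportal genes Cdh1 fell by 1.11 at 12 Gy in liver and Pck1 rose by 1.93 over the lung trend. Of 16 acute phase genes 4 rose in liver at 12 Gy, where 2.06% of all probes were called, with Saa1 at 3.84, Saa2 at 3.82, Saa3 at 1.22 and Lcn2 at 1.08, and Saa3 rose over the lung trend by 1.87. Among 6 female-predominant liver genes, A1bg fell by 2.77 over the liver trend while 2 rose, Cux2 among them. Over the trend, 1.14% of all probes fell and 0.892% rose in liver, and 2.7% rose in lung. Among 7 male-predominant liver genes Hsd3b5, a steroid dehydrogenase, fell by 3.86 over the liver trend and Slco1a1 by 1.73 at 12 Gy, and Elovl3 rose by 2.26 over the lung trend.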

How the data were processed

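RNA of 18 mouse livers and 18 mouse lungs was measured on single-colour Agilent mRNA arrays with 1 array per mouse and tissue. The deposited scanner files give linear spot intensity, written by Agilent Feature Extraction 11.5.1.1 per the file headers. Median spot and local background intensity, as deposited by the authors, were corrected with limma 3.58.1 (normexp, offset 0) in R 4.3.3, quantile-normalised within a tissue (both tissues together for comparisons between them) and set on a log2 scale, spots that the scanner flagged as outliers being left out and spots of a probe averaged. The authors' series values, linear intensity as deposited, served as an alternative.

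Testing used lmFit and eBayes on every probe that 1 or more arrays entering a fit marked well above background, with each dose set against 0 Gy, a linear dose trend, and lung set against liver, and p-values were adjusted after Benjamini-Hochberg. The 3 mice of a dose were the replicates. Where a gene had several probes, the one with the highest mean stands for it unless others differed. The genes named are those called in a tissue, 30 P450 genes chosen by name, and up to 5 called genes of each list by size of change; genes that passed only the adjusted p were added after their values were seen. Some list genes that the rule would name are not reported here. Members and lists were chosen with earlier results of these data known. Alternatives were offset, scaling, processed signal, dim-probe filter, outlier spots, joint fit, slide, averaged probes and each mouse left out. Of 56605 probes, 34566 were named through RefSeq, and 9009 named by Ensembl transcript were not used here. The 3 arrays a dose limit the precision. The fits were first tested on simulated data. Promoter windows came from RefSeq (GRCm38.p6).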

Additional observations from a re-analysis of the deposited data

Results flagged for a closer look

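A difference between the tissues in the dose trend singled out 10 probes, each by the interaction of tissue and dose in the joint limma fit (adjusted p from 0.00023 to 0.049). The lung minus liver trends over 12 Gy were 2.19 for Cyp4a12b, 1.74 for the brighter Cyp2e1 probe, 1.74 for Cyp4a12a, 1.39 for Cyp2u1, 1.29 for Cyp4f41-ps and 1.12 for Cyp2s1. They were −1.93 for Cyp4a14, −1.68 for Cyp2a22, −1.56 for Cyp2j9 and −1.12 for Cyp2ab1. For Cyp4a12a the call was lost on leaving out any of 13 mice, for Cyp2a22 and Cyp4a14 without mouse 6 or 26, for Cyp4a12b without mouse 6 and for Cyp2ab1 without mouse 21. The calls of Cyp2j9, Cyp2u1, Cyp2e1, Cyp2s1 and Cyp4f41-ps were kept without any single mouse.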

How the results depend on the processing

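Lung against liver at 0 Gy gave 74 to 75 called probes with each mouse left out in turn, and no probe was called at 1 or 2 Gy in either tissue under any mouse left out. With slide as a fixed block, 0 probes were called in liver at 4, 8 and 12 Gy, over the liver trend, over the lung trend and for the difference of trends; the cause was not tested. The lung trend of Cyp1a1 was then 1.16 and that of Cyp2a22 0.062, and without the 4 arrays of the later slide they were 0.58 and 0.78, an alternative chosen after seeing the data. With slide as a random block, 3 probes were called over the liver trend, 0 in lung at 4 Gy and 6 for the difference of trends. With an offset of 50 the counts were 1 in liver at 4 Gy, 7 in liver at 12 Gy and 2 over the lung trend. Requiring 3 arrays well above background gave 5 in liver at 8 Gy and 7 at 12 Gy. In lung at 12 Gy, 5 were called with 75th percentile scaling, 5 with the authors' series values, 1 with outlier spots kept and 8 with both tissues fitted together, which gave 2 at 8 Gy; averaging the probes of a transcript gave 0 at 4 Gy. Leaving out single mice gave in liver 1 to 3 probes at 4 Gy, 3 to 7 at 8 Gy, 2 to 10 at 12 Gy and 3 to 9 over the trend. It gave in lung 1 at 4 Gy, 1 to 2 at 8 Gy, 1 to 6 at 12 Gy and 1 to 6 over the trend, and 7 to 11 for the difference of trends. The widest liver counts came without mouse 21 (10 at 12 Gy) and mouse 26 (2 at 12 Gy, 3 over the trend), and the widest lung counts without mouse 24 (6 at 12 Gy) and mouse 16 (1 at 12 Gy). Scaling to the 75th percentile moved the median of all probes from 0.09 to 0.25 in lung at 12 Gy and from −0.05 to −0.56 between tissues at 0 Gy. With mouse number as a replicate block, the difference of trends gave 10 probes and the tissue comparison 75. Correlations between liver and lung deviations of the same number were −0.14 to 0.25, above 0.1 for 3 of 18 numbers, and 8 of 18 correlated best with their own number. Within 1 slide, 0 probes were called in liver at 1 and 2 Gy and in lung at 1 Gy. Probes near background limit what can be seen of liver-type P450 genes in lung.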
